A study of Homo sapiens with 5 samples.

Results

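Aminoacyl-tRNA synthetases attach each amino acid to its tRNA, and here their ribosome footprints were compared between eIF6 mutant and wild-type human cells. The set was chosen by gene symbol from the table of footprint counts and holds 39 of its 17297 genes. It has 20 genes of cytosolic enzymes, 16 of mitochondrial enzymes (suffix 2) and 3 of scaffold proteins. All 39 were in the table and all passed the filter on low counts, so every member was tested.

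The cells were HCT116, a human colorectal carcinoma line. Of the 5 libraries, 2 had the genotype Wt (called WT here) and 3 the genotype eIF6-N106S (MUT), in which CRISPR/Cas9 put the change into both copies of the gene. eIF6 binds the large ribosomal subunit and keeps it from joining the small one. Both groups were otherwise handled alike, with no drug or other agent named. The labels speak of mutant clones but do not say which library came from which clone or culture, so the p-values rest on a spread among libraries that may be technical. Footprints were fragments of 25 to 35 nucleotides from single 80S ribosomes after digestion with MNase.

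Each cytosolic synthetase is encoded in the nucleus and serves the cytosolic ribosomes, and a separate set, also nuclear-encoded, is imported to serve the ribosomes inside mitochondria. GARS1 and KARS1 make both forms from 1 gene, and mitochondria have no glutamine enzyme of their own: EARS2 charges that tRNA with glutamate, which an amidotransferase then converts. In animals several cytosolic enzymes sit together in the multisynthetase complex, held by the scaffold proteins AIMP1, AIMP2 and EEF1E1 (also called AIMP3). The set holds 10 genes of that complex: the 3 scaffolds and EPRS1, IARS1, KARS1, LARS1, MARS1, QARS1 and RARS1. Many cytosolic synthetase genes are known targets of ATF4, the transcription factor of the amino acid response.

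Library totals ran from 2095217 counts (WT replicate 1) to 3821176 (MUT replicate 3). Member genes had from 24 to 1898 counts in a library, with 47 to 1898 for cytosolic and 24 to 624 for mitochondrial enzymes. Levels are given as CPM, counts per 1e+06 of the scaled library size, and differences as log2 fold changes of MUT over WT, with adjusted p from edgeR's quasi-likelihood test over all 11991 genes tested. Footprints were not divided by mRNA level here. A change in mRNA, a change in ribosomes per mRNA and fewer or more cells in a given state therefore cannot be told apart. CPM is not scaled to gene length, so levels are compared within a gene and not between genes. EIF6 itself averaged 178 ± 9.16 CPM over 2 WT libraries and 157 ± 10.7 CPM over 3 MUT libraries (mean ± SD). It did not pass (adjusted p = 0.215), and this does not check the labels, since the edit changes 1 amino acid. Of 9 epithelial markers tested 2 rose (KRT8, log2 fold change 0.37, and KRT19, 0.29) and 3 fell (CDH1, -0.90, EPCAM, -0.50, and CLDN7, -0.57). The share called was 55.6%, against 22.9% of all genes tested. The whole list of 11 summed to 1113 to 1177 CPM in WT and 1212 to 1517 in MUT. The part of these markers in the results on the synthetases was not tested. The fibroblast list stayed between 6.92 and 9.43 in all libraries and the endothelial list between 4.97 and 10.5. The 5 immune markers in the table summed to at most 0.477 in WT and 1.60 in MUT, and none passed the filter.

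Footprints rose on 3 of the 39 genes and fell on 6 (threshold 0.05 on the adjusted p), while 30 were not called. FARSA, SARS2 and CARS2 rose. QARS1, LARS1, TARS1, EPRS1, IARS2 and AIMP1 fell. Over all genes tested 22.9% were called, 10.0% as higher and 12.9% as lower, and the members' 9 of 39 (23.1%) lies at that background. All MUT libraries lay above all WT libraries for 9 members and below them for 12, against 25.4% and 25.3% of all genes, so 21 did not overlap between groups where 50.7% of all genes did not. The members' log2 fold changes ran from -0.40 (AIMP1) to 0.58 (SARS2), and the middle of all genes, from the 10th to the 90th percentile, ran from -0.44 to 0.52. Among the members, 3 rose and 2 fell with upper-quartile scaling, and 3 rose and 1 fell with library size only. Over all genes 23.1% and 23.3% were called with these 2 scalings, and 13.8% in DESeq2. DESeq2 called 1 higher and 2 lower. Leaving out WT replicate 2 leaves 1 WT library, and median log2 fold changes then moved towards 0. They were -0.06 for cytosolic enzymes, 0.14 for mitochondrial enzymes and -0.07 for the multisynthetase complex. As reported they were -0.09, 0.19 and -0.24.

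**Figure D1:**
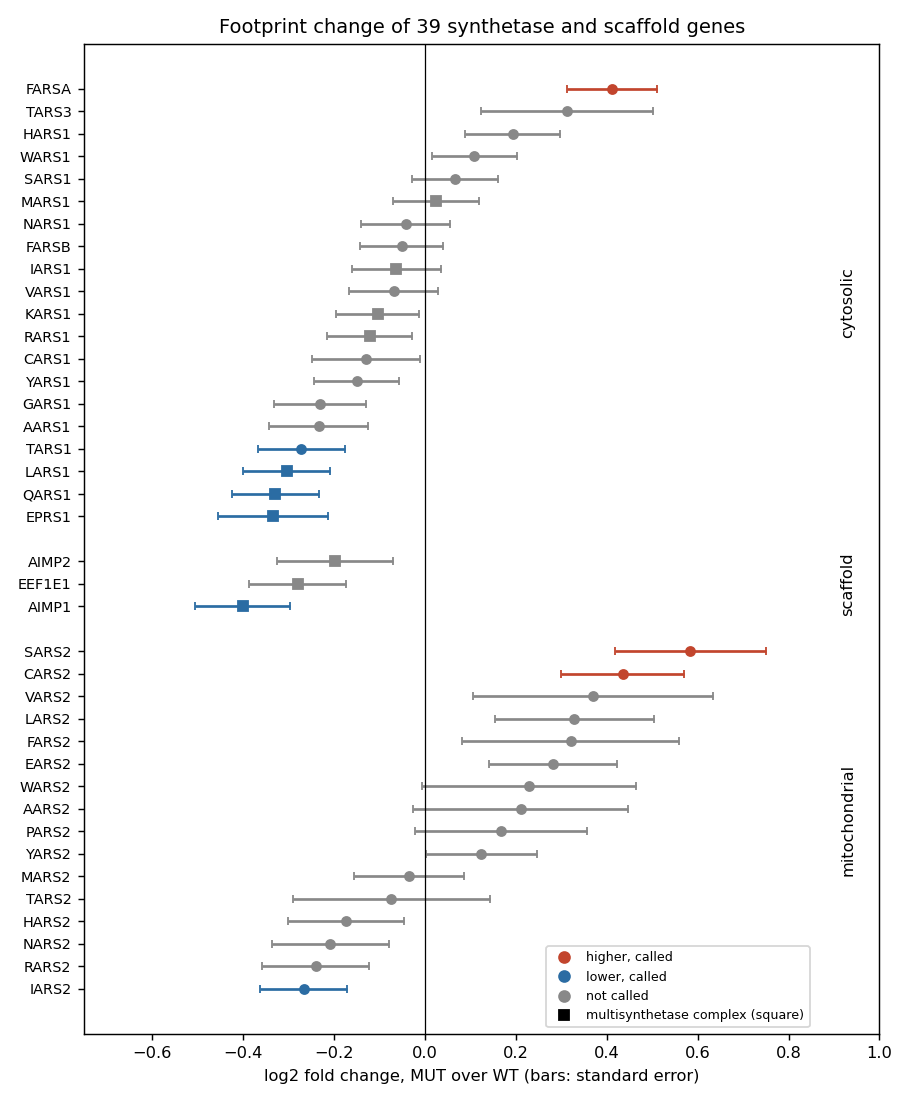
Log2 fold change of footprints, MUT over WT, for the 39 genes (vertical axis, grouped by class), with bars of 1 standard error from edgeR. Filled red marks are genes called higher, blue ones called lower and grey ones not called. Squares are genes of the multisynthetase complex, of which 9 of 10 lie left of 0.

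Of the cytosolic enzymes, 1 rose and 4 fell among 20, with a median log2 fold change of -0.09 where all genes had 0.00. Of the mitochondrial enzymes, 2 rose and 1 fell among 16, with a median of 0.19. The shares called, 25.0% and 18.8%, lie near the 22.9% of all genes, and near the 28.2% and 24.9% of genes within the same ranges of level. Values below 0 were found for 14 of 20 cytosolic and 6 of 16 mitochondrial genes. The medians differed by 0.28, by 0.24 with the replicate block, and by 0.20 to 0.29 with 1 library left out. Another scaling shifts all genes nearly alike, so it could hardly change this difference. All genes tested whose mean level lay within the range of the cytosolic enzymes (up to 466 CPM) had a median of -0.03, and those within the mitochondrial range (up to 171 CPM) had 0.01. The part of level in the difference was not tested further.

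FARSA and FARSB encode the catalytic alpha and the beta subunit of cytosolic phenylalanyl-tRNA synthetase, which assemble in equal numbers. FARSA had 122 and 111 CPM in WT and 161, 151 and 151 CPM in MUT. Every MUT library was above both WT libraries, and the log2 fold change was 0.41 (SE 0.0998, adjusted p = 0.00443). FARSB had 239 and 237 CPM in WT and 225, 235 and 228 CPM in MUT. Its log2 fold change of -0.05 did not pass (adjusted p = 0.723), although all MUT libraries were slightly below WT, and the 95% interval from -0.24 to 0.14 left out a rise of FARSA's size. The ratio of FARSA to FARSB counts was 0.509 and 0.470 in WT and 0.717, 0.642 and 0.662 in MUT. All MUT ratios were above both WT ratios (exact two-sided permutation p = 0.1, the smallest that 2 against 3 libraries allow). FARSA kept its call in 12 of 13 alternatives and lost it without WT replicate 2 (log2 fold change 0.35, adjusted p = 0.0886).

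FARSA lies on chromosome 19 at 12922479 to 12933711 and SARS2 on the same chromosome at 38915266 to 38930763 (GRCh38.p14 gene bounds). The 846 tested genes of chromosome 19 had a median log2 fold change of 0.20, and 22.1% of them were called. The part of this shift in the rises of FARSA and SARS2 was not tested. CARS2 lies on chromosome 13 (110641410 to 110713522), whose 196 tested genes had a median of -0.13.

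SARS2, the mitochondrial seryl-tRNA synthetase, had 23.5 and 32.7 CPM in WT and 40.4, 44.5 and 44.1 CPM in MUT. The groups did not overlap, and its log2 fold change of 0.58 (SE 0.166, adjusted p = 0.0129) was the highest among the members. The WT libraries stood apart from each other: the log2 fold change was 0.39 without WT replicate 1, where the call was lost (adjusted p = 0.159), and 0.88 without WT replicate 2. SARS1, the cytosolic enzyme, had 193 and 184 CPM in WT and 211, 193 and 189 CPM in MUT, which overlapped.

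CARS2, the mitochondrial cysteinyl-tRNA synthetase, had 41.5 and 45.8 CPM in WT and 57.3, 62.9 and 57.7 CPM in MUT. All MUT libraries were above both WT libraries (log2 fold change 0.44, SE 0.135, adjusted p = 0.0223). That call was lost without WT replicate 1 (adjusted p = 0.133), WT replicate 2 (0.0769), MUT replicate 1 (0.0519) or MUT replicate 2 (0.0674), and in DESeq2 (0.0944), while the log2 fold change stayed between 0.37 and 0.52. Its gene bounds overlap those of ING1 on the other strand, and no source used here says whether strand was used in counting. The cytosolic CARS1 had 84.9 and 88.0 CPM in WT and 82.4, 85.8 and 69.5 CPM in MUT and did not pass (adjusted p = 0.460).

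IARS2, the mitochondrial isoleucyl-tRNA synthetase, went the other way, with 180 and 194 CPM in WT and 145, 162 and 160 CPM in MUT. The groups did not overlap, and the gene just passed (log2 fold change -0.27, SE 0.0958, adjusted p = 0.0452). It lost that call when any 1 of the 5 libraries was left out, with adjusted p from 0.0537 (without MUT replicate 3) to 0.291 (without WT replicate 2). The cytosolic IARS1 had 470 and 483 CPM in WT and 435, 500 and 433 CPM in MUT. Its log2 fold change was -0.06, with a 95% interval from -0.26 to 0.14.

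**Figure D2:**
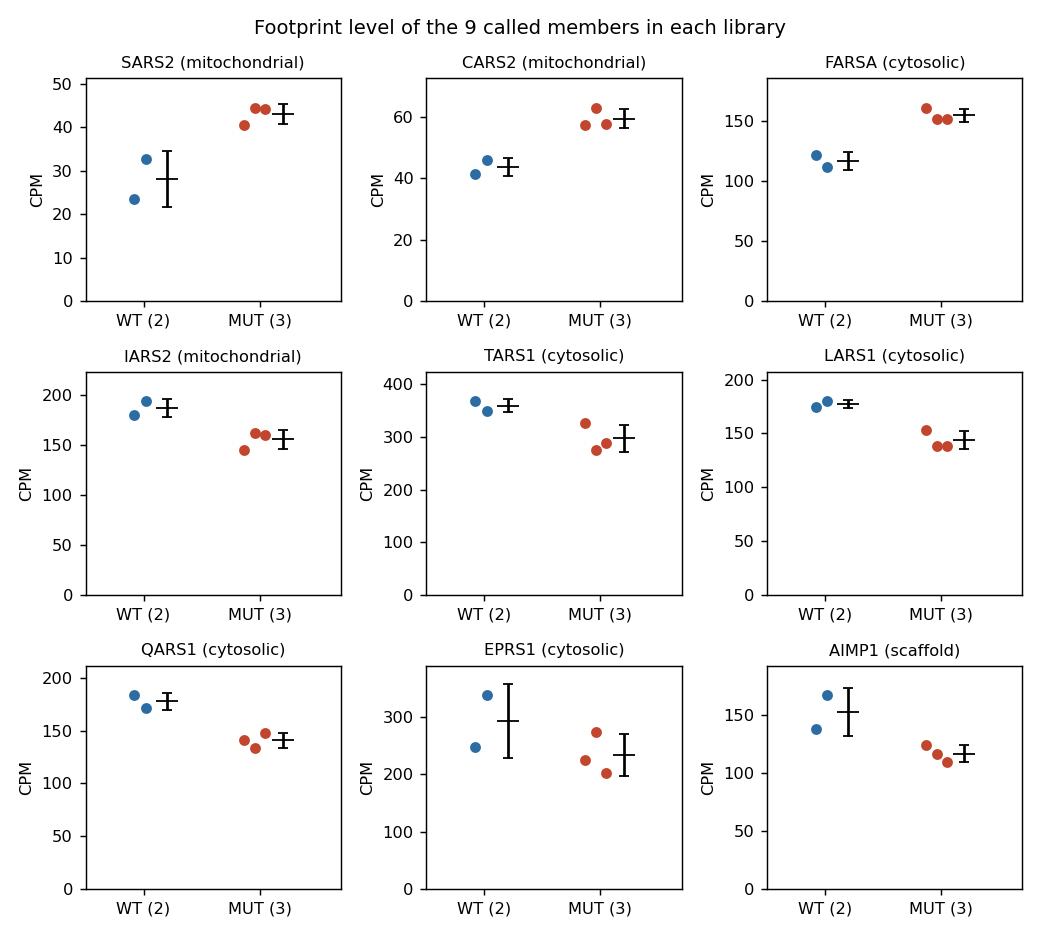
Footprint level (CPM, axis from 0) of the 9 called genes in each of the 2 WT (blue) and 3 MUT (red) libraries, with the mean and SD of each group in black. Groups overlap for EPRS1 and for none of the other 8, and the WT libraries lie far apart for EPRS1, AIMP1 and SARS2.

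In the multisynthetase complex 4 of 10 genes fell and 0 rose, where 12.9% of all genes were called lower, and the median log2 fold change was -0.24. At an unadjusted p under 0.05 edgeR had 0 higher and 5 lower, and DESeq2 and limma-voom also called 0 higher. The share of all genes at that unadjusted threshold was not computed, so the 5 have no background beside them. All MUT libraries lay below both WT libraries for 6 of the 10, where 25.3% of all genes did so. The scaffold AIMP1 had 137 and 167 CPM in WT and 124, 116 and 109 CPM in MUT. No library overlapped, and the log2 fold change was -0.40 (SE 0.104, adjusted p = 0.00695). EEF1E1, the scaffold that also has a form in the nucleus, had 118 and 154 CPM in WT and 115, 113 and 112 CPM in MUT. It missed the threshold (log2 fold change -0.28, adjusted p = 0.0601) with the MUT libraries within a narrow band below both WT libraries. AIMP2, which holds the complex's other parts together, had 80.9 and 109 CPM in WT and 88.1, 91.1 and 73.4 CPM in MUT, so that MUT replicates 1 and 2 lay between the WT libraries.

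Of the complex's enzymes, QARS1, which charges glutamine, had 184 and 172 CPM in WT and 142, 134 and 148 CPM in MUT (log2 fold change -0.33, SE 0.0957, adjusted p = 0.0147). LARS1, the leucyl enzyme, which is also known as a leucine sensor upstream of mTORC1, had 174 and 180 CPM in WT and 154, 139 and 139 CPM in MUT (log2 fold change -0.30, SE 0.0956, adjusted p = 0.0233). For both genes all MUT libraries were below both WT libraries. EPRS1, a fused enzyme for glutamate and proline, had 248 and 339 CPM in WT and 226, 274 and 203 CPM in MUT. MUT replicate 2 was above WT replicate 1, and the log2 fold change of -0.34 (SE 0.121) passed narrowly (adjusted p = 0.0459). RARS1, KARS1 and IARS1 had log2 fold changes of -0.12, -0.10 and -0.06, and MARS1, the methionyl enzyme, had 0.02, with a 95% interval from -0.17 to 0.22. None of these 4 passed.

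Part of these falls depended on WT replicate 2. Without it, which leaves 1 WT library, the complex's median was -0.07, and without WT replicate 1 it was -0.31. EPRS1 stood at -0.08 without WT replicate 2, against -0.54 without WT replicate 1. LARS1 and QARS1 moved less, with -0.27 and -0.37 without WT replicate 2 and -0.33 and -0.29 without WT replicate 1. AIMP1 kept its call in 12 of 13 alternatives and lost it without WT replicate 2 (log2 fold change -0.24, adjusted p = 0.261). With library size only, 1 of the 10 genes fell. The gene bounds of AIMP1 overlap those of TBCK on the other strand, and RefSeq names 2 pseudogenes of AIMP1.

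Outside the complex, TARS1, the cytosolic threonyl enzyme, had 367 and 349 CPM in WT and 326, 275 and 289 CPM in MUT. All MUT libraries were lower (log2 fold change -0.27, SE 0.0960, adjusted p = 0.0420), and the call was lost in 7 of 13 alternatives. Its paralog TARS3 had 23.5 and 19.9 CPM in WT and 28.9, 26.1 and 25.1 CPM in MUT, with a log2 fold change of 0.31 that did not pass (95% interval from -0.08 to 0.70). The ratio of TARS1 to TARS3 counts was 15.6 and 17.5 in WT and 11.3, 10.6 and 11.5 in MUT, with no overlap. No source used here says how reads shared by the 2 paralogs were counted.

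The other 10 cytosolic enzymes outside the complex did not pass. GARS1 and AARS1 each had a log2 fold change of -0.23 (adjusted p = 0.102 and 0.124), and both passed without MUT replicate 2 (0.0303 and 0.0396). YARS1 was at -0.15, CARS1 at -0.13, VARS1 at -0.07, FARSB at -0.05 and NARS1 at -0.04. SARS1, WARS1 and HARS1 were at 0.07, 0.11 and 0.19. WARS1, which interferon is known to induce, had 187 and 186 CPM in WT and 209, 191 and 202 CPM in MUT.

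The other 13 mitochondrial enzymes did not pass either, and 8 of them had values above 0: VARS2 0.37, LARS2 0.33, FARS2 0.32, EARS2 0.28, WARS2 0.23, AARS2 0.21, PARS2 0.17 and YARS2 0.12. The other 5 were below 0: MARS2 at -0.03, TARS2 at -0.07, HARS2 at -0.17, NARS2 at -0.21 and RARS2 at -0.24. EARS2, the enzyme that charges mitochondrial glutamate and glutamine tRNAs, had 40.5 and 49.7 CPM in WT and 60.4, 55.3 and 51.3 CPM in MUT, without overlap (adjusted p = 0.154, 95% interval from -0.01 to 0.57). The standard errors of the mitochondrial enzymes reached 0.264 (VARS2), against at most 0.189 among cytosolic enzymes (TARS3), so a change such as that of AIMP1 was not detectable at this depth in the scarcest of them.

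Cytosolic and mitochondrial enzymes of the same amino acid were set against each other as a ratio of counts within each library, which does not depend on scaling. There were 17 such ratios over 16 mitochondrial enzymes, with EPRS1 and FARS2 in 2 each. The ratio was lower in all MUT than in all WT libraries for 7, higher for 2 (HARS1 to HARS2 and IARS1 to IARS2) and overlapped for 8, so 9 of 17 did not overlap, where 50.7% of single genes did not. For cysteine it was 2.05 and 1.92 in WT and 1.44, 1.36 and 1.20 in MUT. For leucine it was 6.58 and 5.85 in WT and 4.16, 3.34 and 4.55 in MUT. For EPRS1 to EARS2 it was 6.14 and 6.82 in WT and 3.73, 4.96 and 3.96 in MUT. Isoleucine went the other way, with 2.61 and 2.49 in WT and 3.01, 3.09 and 2.70 in MUT. Over the 19 ratios computed, these 17 and those of FARSA to FARSB and TARS1 to TARS3, the lowest exact two-sided permutation p was 0.1, or 0.211 after Benjamini-Hochberg adjustment. No ratio could pass 0.05 in this design.

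**Figure D3:**
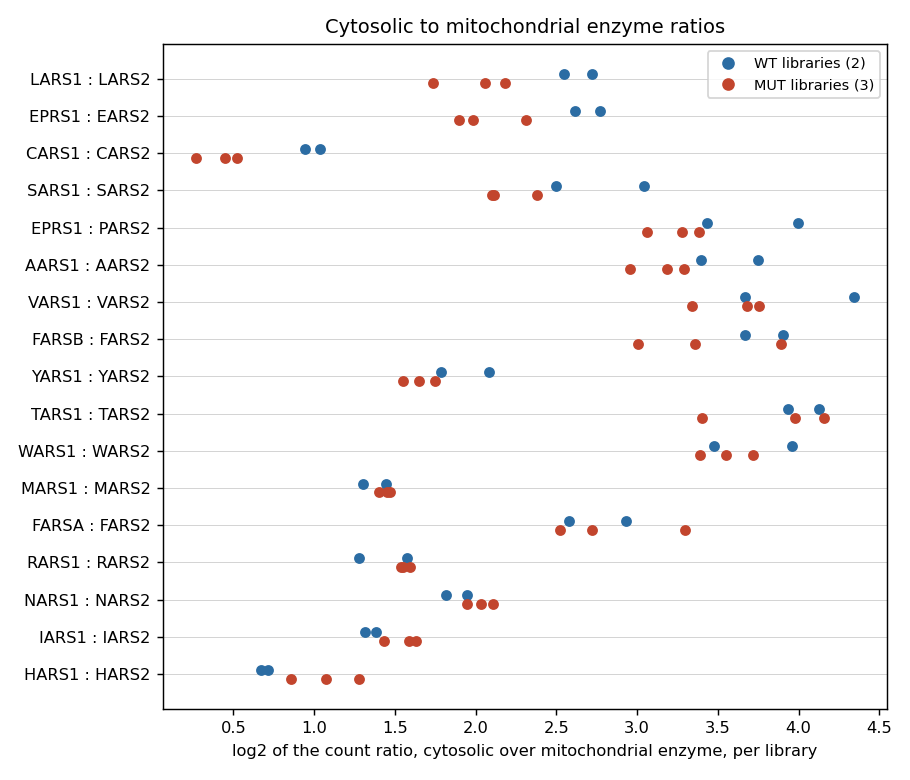
Log2 of the ratio of counts, cytosolic over mitochondrial enzyme of the same amino acid, in each library (blue, 2 WT; red, 3 MUT), sorted by the difference between groups. Red points lie left of both blue points for 7 of 17 ratios and right of both for 2.

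As a share of all counts, the cytosolic enzymes held 0.419% ± 0.0170 over 2 WT libraries and 0.411% ± 0.0166 over 3 MUT libraries (mean ± SD). The mitochondrial enzymes held 0.0770% ± 0.00396 in WT against 0.0817% ± 0.00360 in MUT. The complex held 0.214% ± 0.0177 in WT against 0.200% ± 0.00854 in MUT. For each of these 3 groups the WT and MUT libraries overlapped. For the mitochondrial share in WT replicate 1, 0.0742%, the 95% exact binomial interval was 0.0706% to 0.0780%, which covers counting error only.

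The synthetases fall into classes I and II by the fold of their catalytic domain, a split that the gene choice did not use. Of 18 class I genes 1 rose and 3 fell (median -0.05), and of 17 class II genes 2 rose and 1 fell (median -0.04). The shares called, 22.2% and 17.6%, lie near the 22.9% of all genes. EPRS1 has a domain of each class and was left out.

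The ATF4 site known from amino acid response genes was searched as TGATGCAA on both strands of RefSeq promoters (GRCh38.p14), from 250 bases before to 50 after the start. Promoters of 33 of the 39 members were matched, and the first one listed for each gene was used, since some genes have several. The letters were found in 6 of 16 cytosolic enzyme promoters, 0 of 14 mitochondrial and 0 of 3 scaffold promoters, and in 0.669% of 15843 promoters of protein-coding genes. The 6 are shown because they carry the site for which cytosolic synthetase genes are known, each as 30 bases 5′ to 3′ on the gene's strand, with the motif or its reverse complement in capitals.
AARS1 (chr16:70289675-70289704, minus strand): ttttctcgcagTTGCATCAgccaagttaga
CARS1 (chr11:3057407-3057436, minus strand): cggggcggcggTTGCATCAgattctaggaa
IARS1 (chr9:92293692-92293721, minus strand): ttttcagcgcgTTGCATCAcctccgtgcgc
MARS1 (chr12:57488053-57488082, plus strand): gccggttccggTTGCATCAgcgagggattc
NARS1 (chr18:57621804-57621833, minus strand): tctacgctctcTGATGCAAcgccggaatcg
TARS1 (chr5:33440956-33440985, plus strand): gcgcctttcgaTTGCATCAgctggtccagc

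In AARS1 the match begins 187 bases before the start and in IARS1 13 bases before it. In CARS1 and MARS1 it spans the start, and in TARS1 and NARS1 it begins 3 and 15 bases into the transcript. Of these 6 genes TARS1 fell and the other 5 did not pass, with log2 fold changes of -0.23 for AARS1, -0.13 for CARS1, -0.06 for IARS1, -0.04 for NARS1 and 0.02 for MARS1. Of the called cytosolic genes QARS1, EPRS1 and FARSA had promoters in the table without these letters, and LARS1 was not matched. The E-box CACGTG, the site of MYC and related factors, was found in 4 of 33 member promoters (CARS2, EARS2, IARS1 and MARS2) and in 8.88% of all.

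Genes of the amino acid response other than the synthetases moved both ways: of 24 tested, 3 rose and 6 fell, with a median log2 fold change of -0.01, where 10.0% of all genes rose and 12.9% fell. ASNS, asparagine synthetase, fell from 138 and 162 CPM in WT to 93.8, 92.4 and 70.0 CPM in MUT (log2 fold change -0.82, adjusted p = 3.19e-05). The transcription factors ATF5 and ATF3 rose, with log2 fold changes of 1.02 and 0.75, and the folate enzyme MTHFD2 fell, with -0.46. The third gene that rose was SESN2, a sensor of the mTORC1 pathway (named after its value was seen). ATF4 itself was at -0.15 and did not pass (adjusted p = 0.262). Without WT replicate 2 the list's median was -0.05. The call of SESN2 held in 12 of 13 alternatives.

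Of 17 amino acid transporter genes tested 0 rose and 2 fell (11.8% called, against 22.9% of all genes). They were SLC38A2 (log2 fold change -0.50, adjusted p = 0.000625) and the cationic transporter SLC7A2 (-0.64, 0.0132). SLC38A2, which imports glutamine and other neutral amino acids, had 537 and 513 CPM in WT and 358, 347 and 404 CPM in MUT. SLC7A2 was no longer called when WT replicate 1 (adjusted p = 0.249) or MUT replicate 1 (0.0628) was left out. At an unadjusted p under 0.05 edgeR had 1 transporter higher, and DESeq2 and limma-voom called 0 higher.

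Of 9 initiation and elongation factors of the cytosolic ribosome, including those that bring charged tRNA, 1 rose and 3 fell. Of all genes 10.0% rose and 12.9% fell. EIF2S3 and EIF2S2, subunits of the factor that brings the initiator tRNA, had log2 fold changes of -0.37 and -0.29, and the call of EIF2S2 held in 5 of 13 alternatives. EEF1A1, which delivers the elongator tRNAs, had 758 and 448 CPM in WT and 459, 404 and 393 CPM in MUT. Its fall (log2 fold change -0.52, adjusted p = 0.00810) rested on WT replicate 1, without which the adjusted p was 0.557, and it was also lost in DESeq2 (0.231). Its isoform EEF1A2 rose, from 320 and 307 CPM in WT to 372, 406 and 370 CPM in MUT (0.29, adjusted p = 0.0288), a call lost without WT replicate 1, WT replicate 2, MUT replicate 1 or MUT replicate 2, with an adjusted p of up to 0.130.

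Of 15 mitochondrial translation factors 0 rose and 3 fell in edgeR, with 0 higher at an unadjusted p under 0.05 and 0 called higher by DESeq2 or limma-voom. The share called, 20.0%, lies near the 22.9% of all genes. The 3 that fell were the release factor homolog MTRF1 (log2 fold change -0.59), the initiator tRNA formyltransferase MTFMT (-0.51) and MTRES1 (-0.67). MTRF1 averaged 53.2 ± 4.53 CPM in WT and 35.1 ± 0.467 CPM in MUT without overlap, and it kept its call in all 13 alternatives. The amidotransferase subunits that complete the work of EARS2, GATB, QRSL1 and GATC, were at 0.19, 0.13 and 0.06 and did not pass. The list's median was -0.17, and -0.04 without WT replicate 2, where the mitochondrial enzymes had 0.19 and 0.14. Without WT replicate 1 the list's median was -0.16 and that of the mitochondrial enzymes 0.10.

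The 9 member calls were followed across the 13 alternatives. FARSA and AIMP1 were called in 12, SARS2 in 11, QARS1 and CARS2 in 8, EPRS1, LARS1 and TARS1 in 6 and IARS2 in 4. In none of these fits did any of the 9 change sign.

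**Figure D4:**
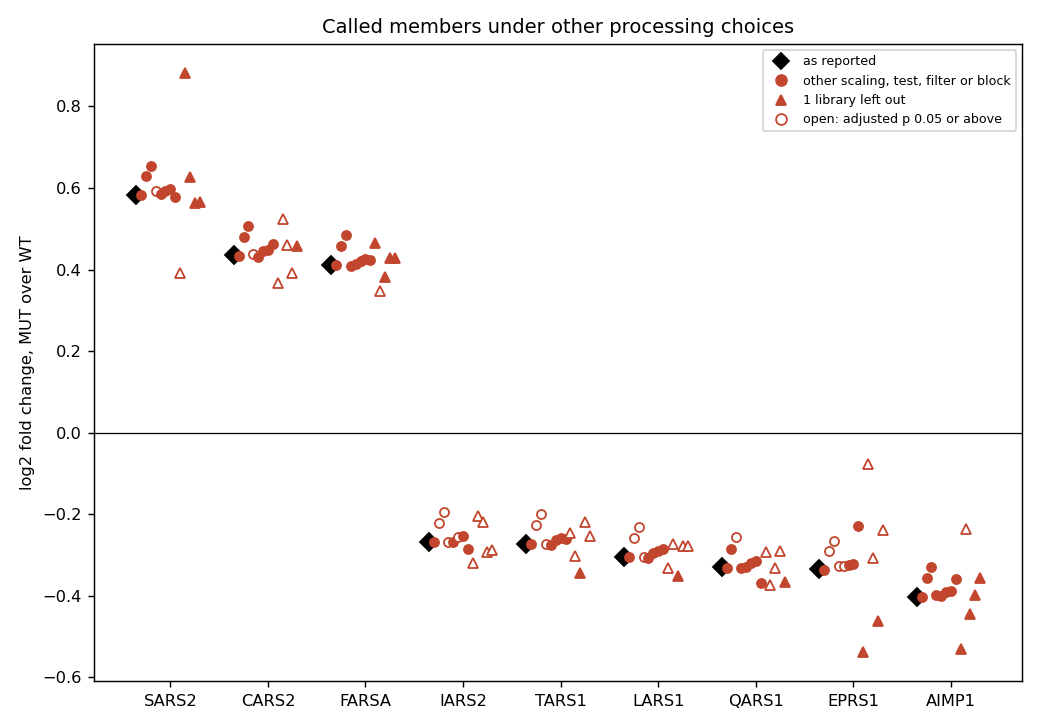
Log2 fold change, MUT over WT, of the 9 called genes as reported (black diamonds), under 8 other choices of scaling, test, filter or block (circles) and with 1 library left out (triangles). Open symbols have an adjusted p of 0.05 or above. All values stay on the side of 0 that was reported, and EPRS1 comes nearest to it, at -0.08.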

How the data were processed

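Footprint counts from 5 HCT116 libraries were used. The authors deposited raw counts per gene, without normalization. The submitters' processing notes name STAR 2.5.2b, cutadapt 4.6, DESeq2 1.42.0, FastQC 0.12.1 and the build hg38. Sources used here name no counting tool, annotation or strand setting. The header's first 2 names are parted by spaces, so header words were split at any white space, and the code in each was matched to the code in a sample's description. RNA-seq was not analysed here.

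In R 4.3.3, edgeR 4.0.16 kept genes by filterByExpr (minimum count 10, total 15), scaled by TMM and tested MUT against WT with the quasi-likelihood F test (3 residual degrees of freedom), adjusted by the Benjamini-Hochberg method at 0.05. Standard errors came from the F statistic, and 95% intervals from edgeR's total degrees of freedom. The test was checked on simulated counts. No library was a copy of another (chi-square per gene 1.89 to 7.67 over the 10 pairs). Molecular identifiers are not mentioned.

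The members and lists were chosen with earlier results of these data known, so no test over a list is given. Members past the threshold are given in every library, and of each related list up to 4 genes with the lowest p are named, at most 2 where none passed. Other genes that the text names were chosen after their values were seen. Alternatives were DESeq2, limma-voom (limma 3.58.1), scaling by RLE, by upper quartile or by library size only, no count filter (1 count), a strict one (30 counts in 2 libraries and a mean of 10 CPM), a replicate block and each library left out. Gene bounds and promoters are RefSeq's for GRCh38.p14, and all 39 symbols matched. Coding lengths were not used here, so footprint density per length was not computed. The list of aminoacylation partners is not reported here.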

Additional observations from a re-analysis of the deposited data

How the results depend on the processing

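With RLE scaling, limma-voom and the strict filter, all counts of called members stayed within 1.5 times those reported. With upper-quartile scaling 2 members fell (1 cytosolic, 0 mitochondrial, 2 of the complex), where 1209 of all 11991 genes fell, against 1544 as reported. With library size only 1 member fell (0 cytosolic, 0 mitochondrial, 1 of the complex), where 1040 of all genes fell. The cytosolic median was then -0.014, and the median of all genes had moved up as well, from 0.002 to 0.075. DESeq2 called 1 member higher and 2 lower, where 13.8% of all genes were called, against 22.9% as reported. It called 1 cytosolic enzyme lower, 0 mitochondrial enzymes in either direction and 2 complex genes lower. Without a count filter 0 mitochondrial enzymes fell, where 15.9% of all genes were called. With 1 library left out, the members called ranged from 1 to 3 higher and from 0 to 4 lower. Cytosolic enzymes ranged from 0 to 1 higher and 0 to 3 lower, mitochondrial from 0 to 2 higher and 0 to 0 lower, and the complex from 0 to 3 lower. The medians ranged from -0.13 to -0.04 (cytosolic) and from 0.10 to 0.19 (mitochondrial). Without WT replicate 2 no member was called lower by edgeR at that threshold. IARS2, the mitochondrial gene that fell, lost its call without any 1 library. The cause of these changes was not tested. Leaving out a library also leaves fewer samples, and fewer genes of the whole table were then called. With 1 MUT library left out the share called was 13.6% to 20.4% of all genes, against 22.9% as reported.

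Replicate numbers are shared by the groups, but the labels do not say that they mark a shared batch. Deviations from the group mean correlated across genes at 0.08 for replicates 1 and 0.15 for replicates 2. For WT and MUT libraries of unlike number the values ran from -0.15 to 0.06. The deviations of the 2 WT libraries mirror each other, so these values are not independent and cannot tell whether a batch was shared. With the replicate block, which leaves 1 residual degree of freedom, 5 members rose (2 cytosolic) and 7 fell (5 of the complex), as 28.7% of all genes were called.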
